A study of Homo sapiens with 12 samples.

Results

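MDM2, MDM4, PPM1D, CCNG1, RCHY1 and USP7 encode proteins that restrain p53 or set the amount of its inhibitors, and their transcripts were followed in the human osteosarcoma line U2OS, whose own p53 gene is intact. The members are these 6 named genes of the 19775 genes on the array, and they were found through the probe annotation of the platform. Only probe sets paired with 1 gene were taken, which gave 27 of 54613 probe sets. MDM2 had 10 probe sets, MDM4 had 6, RCHY1 and USP7 had 4 each, PPM1D had 2 and CCNG1 had 1. After a filter on dim probe sets 24 of the 27 were tested. The other 3, of which 2 belong to MDM2 and 1 to USP7, are described by their signals.

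The study set 24 hours of doxorubicin at 0.6 µg/ml against cells left untreated, and 24 hours of nutlin-3 at 10 µM against cells given the solvent DMSO at 0.1%. Every group had 3 arrays (4 groups, 12 arrays), and the question was how the p53 response depends on the stress. No gene was deleted or introduced in any group, so every group carries the same endogenous p53. The model is 1 established line at 1 dose and 1 time point per agent. U2OS is known to carry a truncating PPM1D mutation that leaves the phosphatase active. The labels do not say whether the 3 arrays of a group came from separate cultures, and the p-values therefore describe the spread of these arrays alone, part or all of which may be technical. In a bulk sample a smaller share of expressing cells and less RNA per cell cannot be told apart.

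p53 is held down by a feedback loop. MDM2 is a ubiquitin ligase that marks p53 for degradation and covers its activation domain, and the MDM2 gene is itself switched on by p53 from a second promoter in its first intron. MDM4, also called MDMX, is a relative of MDM2 with little ligase activity of its own that joins MDM2 and blocks the activation domain. PPM1D encodes the phosphatase WIP1, which removes phosphates from p53 and from the kinases of the DNA damage response. CCNG1 encodes cyclin G1, which brings the phosphatase PP2A to MDM2. RCHY1 encodes PIRH2, another p53-induced ubiquitin ligase of p53. USP7, also called HAUSP, removes ubiquitin from p53, MDM2 and MDM4. Doxorubicin poisons topoisomerase II and leaves DNA breaks. Nutlin-3 occupies the pocket of MDM2 that binds p53 and does not break DNA.

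The sequences before the transcription starts are shown first, because MDM2 is known to be transcribed from a pair of starts, of which the second answers to p53. RefSeq's promoter table for GRCh38.p14 matched all 6 genes. MDM2 lies at chr12:68808172-68850686, PPM1D at chr17:60600193-60666280 and CCNG1 at chr5:163437571-163457640, all on the plus strand. MDM4 lies at chr1:204516406-204558120 on the plus strand, RCHY1 at chr4:75479033-75514715 and USP7 at chr16:8892097-8963906, both on the minus strand. Each sequence below is the 250 bases before a start on the plus strand, 5′ to 3′. The windows are chr12:68807922-68808171 for the upstream MDM2 start, chr12:68808767-68809016 for the second MDM2 start inside the gene, chr17:60599943-60600192 for PPM1D and chr5:163437321-163437570 for CCNG1. Capitals mark matches to the 10-letter p53 half-site with at most 1 mismatch and with its central C and G kept. The half-site reads the same on both strands, so a single search covers both.
MDM2 upstream start: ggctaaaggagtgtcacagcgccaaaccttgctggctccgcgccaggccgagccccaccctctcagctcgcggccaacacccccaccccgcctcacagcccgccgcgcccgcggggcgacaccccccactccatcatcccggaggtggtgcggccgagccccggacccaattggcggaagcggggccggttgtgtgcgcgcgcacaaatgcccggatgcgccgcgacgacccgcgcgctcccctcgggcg
MDM2 second start: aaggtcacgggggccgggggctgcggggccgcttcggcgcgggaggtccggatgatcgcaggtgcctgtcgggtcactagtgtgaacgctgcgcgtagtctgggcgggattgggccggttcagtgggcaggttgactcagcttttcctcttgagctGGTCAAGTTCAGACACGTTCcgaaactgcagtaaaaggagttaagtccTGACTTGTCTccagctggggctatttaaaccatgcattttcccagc
PPM1D start: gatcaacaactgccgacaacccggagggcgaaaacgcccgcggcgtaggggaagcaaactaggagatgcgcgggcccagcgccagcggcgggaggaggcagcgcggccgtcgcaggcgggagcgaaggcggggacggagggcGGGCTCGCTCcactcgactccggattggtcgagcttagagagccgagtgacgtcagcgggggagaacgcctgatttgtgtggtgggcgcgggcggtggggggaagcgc
CCNG1 start: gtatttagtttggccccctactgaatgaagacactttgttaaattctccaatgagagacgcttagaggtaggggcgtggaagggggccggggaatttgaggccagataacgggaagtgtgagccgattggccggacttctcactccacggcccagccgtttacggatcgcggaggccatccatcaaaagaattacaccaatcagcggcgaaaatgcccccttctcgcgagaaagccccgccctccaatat
The window of the second MDM2 start held 3 half-sites, GGTCAAGTTC at 94 to 85, AGACACGTTC at 84 to 75 and TGACTTGTCT at 46 to 37 bases before the start. The first and second of them abut, which makes a pair. The upstream MDM2 window held 0 half-sites, the PPM1D window held 1 (GGGCTCGCTC) and the CCNG1 window held 0. Over all 35116 windows of the table, 39.3% held at least 1 such half-site, so a single one is common. A window with at least 3 was found in 1.82% of cases, and 1.57% held a pair at most 13 bases apart. The windows of MDM4 and RCHY1 held 0 half-sites, and 1 of 3 USP7 windows held 1 (AGACAAGGCT). A match is only a run of letters, and windows without one leave the rest of each gene unread.

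Signals are MAS5 values, a linear brightness per probe set, and the scale differs between probe sets, so levels are compared only between arrays of the same probe set, and bright or dim refers to mean signal alone. Changes are differences of log2(signal + 16) with their standard error (SE) from limma, adjusted over all 32768 probe sets tested, and a probe set was called at an adjusted p under 0.05. In Affymetrix names, _s_at marks a probe set whose probes may match several transcripts, and _x_at one whose probes may also match other sequences. Arrays of 1 group correlated at 0.972 to 0.987 over probe sets, and array medians lay between 79.6 and 113.6. Of 7 mesenchymal markers 5 passed the filter, among them VIM and COL1A1, while COL1A2 and TWIST1 lay under it. Of 4 leukocyte markers 3 were tested, and 1 was called higher with each agent. The group means of the 4 spanned 81.8 to 509 with doxorubicin and 50.6 to 259 in untreated cells. They spanned 34.2 to 258 with nutlin-3 and 42.8 to 140 in DMSO. PTPRC, the common leukocyte antigen, lay under the filter. Of 4 epithelial markers 3 were tested, and 2 were called lower with doxorubicin and 1 with nutlin-3. The group means of the 4 spanned 16.3 to 1313 with doxorubicin and 14.3 to 1625 in untreated cells. They spanned 2.07 to 620 with nutlin-3 and 4.65 to 1008 in DMSO, with KRT19 under the filter. Of 3 endothelial markers 1 was tested and was not called with either agent, and VWF and CDH5 were under the filter. Over all 13673 genes, 29.0% were called higher and 24.8% lower with doxorubicin, and 11.0% and 12.5% with nutlin-3. A sign of RNA integrity, the ratio of 3' to 5' signal, was for ACTB 3.12 ± 0.577 with doxorubicin and 1.53 ± 0.0754 without treatment (SD, n = 3, exact 2-sided permutation p = 0.1, the smallest that 3 against 3 allows). For GAPDH the ratio ranged over 0.993 to 1.21 with doxorubicin against 0.98 to 1.05 in untreated cells (exact permutation p = 0.6). That of the spiked control dap was 5.79 ± 2.54 with doxorubicin against 2.71 ± 0.279 in untreated cells (exact permutation p = 0.1). With nutlin-3 the ACTB ratio was 1.31 ± 0.0260 against 1.28 ± 0.0281 in DMSO (exact permutation p = 0.2), and the dap ratio was 2.51 ± 0.0487 against 2.63 ± 0.0237 in DMSO (exact permutation p = 0.1). The part of these ratios and markers in the doxorubicin results was not tested, and doxorubicin array 1, which had the lowest ACTB and dap ratios of its group, was also used alone. With 1 array in that group the spread is taken from the other groups, so a call lost there says nothing about stability and only the value is given.

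MDM2 transcripts rose with both agents, and rose further with nutlin-3. The brightest probe set, 229711_s_at, had signals of 9226, 9672 and 9327 on the doxorubicin arrays and 3589.6, 3383 and 3527 on the untreated arrays. It had 20516, 19161 and 18859 on the nutlin-3 arrays, against 4359, 4649 and 4247 on the DMSO arrays. The 4 groups did not overlap, and every nutlin-3 array lay above every doxorubicin array. The log2 change was 1.42 with doxorubicin (SE 0.07, adjusted p = 1.8e-10), which is 2.68-fold on the log2(signal + 16) scale. With nutlin-3 it was 2.14 (SE 0.07, adjusted p = 2.9e-11), or 4.40-fold. The doxorubicin response minus the nutlin-3 response was -0.72 (SE 0.10, adjusted p = 6.2e-05).

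The next 3 MDM2 probe sets by mean signal also had nutlin-3 above doxorubicin and doxorubicin above both controls. Probe set 225160_x_at had 2964, 2751 and 2468 with doxorubicin against 1183, 1138 and 1125 in untreated cells. It had 5499.6, 5156 and 5129 with nutlin-3 against 984, 1074 and 1070.2 in DMSO. Its changes were 1.23 with doxorubicin and 2.32 with nutlin-3 (SE 0.09 each), and their difference was -1.08 (SE 0.12, adjusted p = 7.4e-06). Probe set 217373_x_at had 791, 1041 and 979.5 with doxorubicin against 238, 134 and 183 in untreated cells. It had 1255, 1087 and 1076 with nutlin-3 against 111, 113 and 138 in DMSO. Its lowest nutlin-3 array exceeded its highest doxorubicin array, yet by a small margin, and the changes were 2.27 and 3.08 (SE 0.17 each). The difference of -0.81 (SE 0.24, adjusted p = 0.019) was -0.70 without doxorubicin array 1 and no longer passed (adjusted p = 0.054). Probe set 217542_at had 532, 471 and 530.5 with doxorubicin against 143, 180.4 and 146 in untreated cells. It had 799.7, 907 and 840.03 with nutlin-3 against 161, 174 and 213 in DMSO. It rose by 1.62 and 2.13 (SE 0.14 each), and the difference of -0.51 did not pass (SE 0.20, adjusted p = 0.061, 95% interval -0.93 to -0.09).

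The 4 dimmer tested MDM2 probe sets also rose with both agents. Probe set 238733_at had 162, 249.6 and 288 with doxorubicin against 85.3, 59.3 and 128 in untreated cells. It had 1451, 1052 and 1105 with nutlin-3 against 117, 83.1 and 92.1 in DMSO. The lowest nutlin-3 array, at 1052, lay far above the highest doxorubicin array, at 288. The changes were 1.24 with doxorubicin (SE 0.24, adjusted p = 0.00044) and 3.42 with nutlin-3 (SE 0.24, adjusted p = 4.6e-08), which are 2.36-fold and 10.7-fold. The difference was -2.18 (SE 0.34, adjusted p = 0.00014), and with only doxorubicin array 1 the doxorubicin change was 0.79. Probe set 211832_s_at had 142, 139 and 158 with doxorubicin against 102, 71.5 and 69.6 in untreated cells, and 282, 232 and 287 with nutlin-3 against 65.1, 33.1 and 14.5 in DMSO. Its doxorubicin change of 0.76 (SE 0.29, adjusted p = 0.04) did not pass without untreated array 2 or 3 (0.69 and 0.68), nor when any doxorubicin or nutlin-3 array was left out. Its nutlin-3 change was 2.51 (SE 0.29, adjusted p = 8.6e-06).

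Probe set 205386_s_at had 391, 312 and 273 with doxorubicin against 129, 97.9 and 100.3 in untreated cells. It had 775, 719 and 657 with nutlin-3 against 83.7, 116 and 124 in DMSO. It rose by 1.45 and 2.57 (SE 0.18 each), a difference of -1.13 (SE 0.25, adjusted p = 0.0027). Probe set 244616_x_at departed from the others in that its responses to both agents were close. It had 348, 303 and 273 with doxorubicin against 172, 129.7 and 86.7 in untreated cells, and 355, 484 and 451 with nutlin-3 against 216, 101 and 173 in DMSO. It rose by 1.19 and 1.36 (SE 0.25 each), with a difference of -0.16 (SE 0.35, adjusted p = 0.77) whose 95% interval of -0.90 to 0.57 includes the difference seen on the brightest probe set.

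In all, 8 of 8 tested MDM2 probe sets were called higher with doxorubicin, where 23.4% of all probe sets tested were called higher. All 8 were called higher with nutlin-3, against 8.33% of all probe sets. On each of the 8 the treated arrays also lay above their control arrays without overlap, as they did for 27.0% of all probe sets with doxorubicin and 17.8% with nutlin-3. The response to doxorubicin was called smaller than that to nutlin-3 for 6 of the 8, against 14.8% of all. This difference includes the gap between the control groups, DMSO minus untreated. On the 6 probe sets that gap was -0.95 (211832_s_at), -0.53 (217373_x_at), -0.14 (225160_x_at), -0.02 (205386_s_at), 0.13 (238733_at) and 0.33 (229711_s_at). The part of the gap in these calls was not tested. On all 8, the doxorubicin arrays lay below the nutlin-3 arrays, as they did for 24.4% of probe sets tested. The log2 changes spanned 0.76 to 2.27 with doxorubicin and 1.36 to 3.42 with nutlin-3. Over the 12 arrays, the 28 pairs of these probe sets correlated at 0.78 to 0.99 with a median of 0.90, which describes 4 group levels rather than 12 independent points. The probe sets share a gene and may share transcript, so they are not replicates, and no file used here ties any of them to transcripts from either MDM2 start.

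The MDM2 probe sets under the filter were 237891_at and 205385_at. Probe set 237891_at had 59.6, 18.4 and 34.6 with doxorubicin against 35.7, 15.9 and 16.2 in untreated cells, and 188, 116 and 119 with nutlin-3 against 37.0, 18.0 and 20.7 in DMSO. Only its nutlin-3 arrays stood clear of the rest. Probe set 205385_at had 59.2, 89.3 and 69.2 with doxorubicin against 42.5, 14.1 and 38.4 in untreated cells, and 46.8, 92.2 and 48.0 with nutlin-3 against 14.9, 41.0 and 17.0 in DMSO. Both treated groups lay above their controls without overlap on 205385_at, at signals too dim for a test under the filter used.

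**Figure D1:**
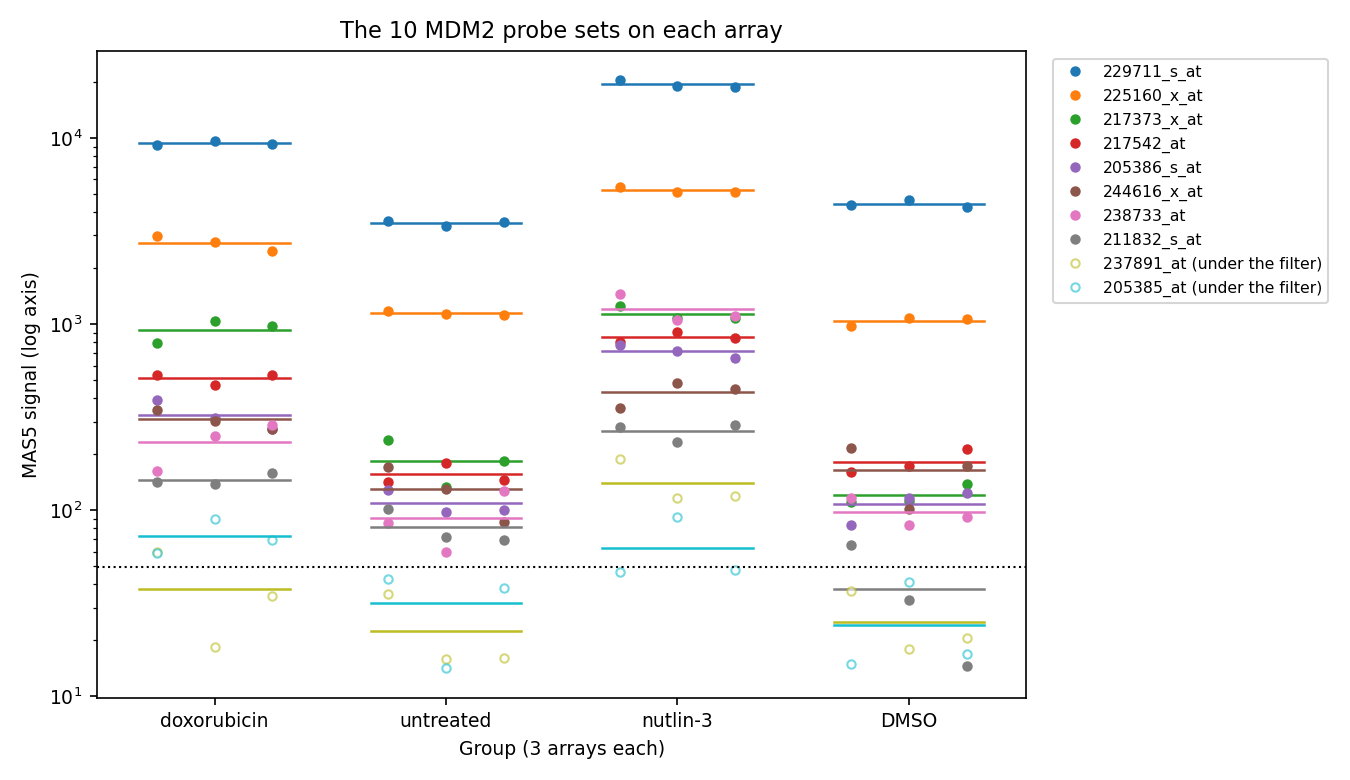
Signal of the 10 MDM2 probe sets on each array (log axis), with the groups in the order doxorubicin, untreated, nutlin-3 and DMSO (3 arrays each). Each point is an array, each short line a group mean, open points are the 2 probe sets under the filter, and the dotted line is the filter signal of 49.3. For the brightest probe set the nutlin-3 arrays lie at 18859 to 20516 and the doxorubicin arrays at 9226 to 9672, both above the controls.

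MDM4, the partner of MDM2 that binds p53 without degrading it, showed no called change with either agent. Its brightest probe set, 236814_at, had 2920.3, 2935 and 3061 with doxorubicin against 2759.5, 3047 and 3006 in untreated cells. It had 3865, 2866 and 3140.5 with nutlin-3 against 3456, 3153 and 3133 in DMSO. The groups overlapped in both comparisons, and nutlin-3 array 1 was the highest of all 12. The changes were 0.02 with doxorubicin (SE 0.10, adjusted p = 0.90, 95% interval -0.19 to 0.23) and 0.01 with nutlin-3 (SE 0.10, adjusted p = 0.97, interval -0.20 to 0.22). A change of the size seen for MDM2 lies outside both intervals.

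Probe set 225740_x_at of MDM4 had 1479, 1412 and 1405 with doxorubicin against 1496, 1436 and 1552 in untreated cells, and 2072, 1428 and 1493 with nutlin-3 against 2020.2, 1732 and 1674 in DMSO. Array 1 was the highest in both the nutlin-3 and the DMSO group, and the changes of -0.06 with doxorubicin and -0.13 with nutlin-3 did not pass (adjusted p = 0.71 and 0.53). Set against the DMSO arrays, the doxorubicin change of this probe set was -0.33 and was called lower (adjusted p = 0.034). Probe set 225742_at had 237, 198 and 128 with doxorubicin against 289, 266 and 207 in untreated cells. It had 216, 211 and 194 with nutlin-3 against 307, 249 and 239 in DMSO. Its nutlin-3 arrays all lay below its DMSO arrays, while doxorubicin and untreated arrays overlapped. Its changes were -0.43 with doxorubicin (SE 0.20, adjusted p = 0.084) and -0.33 with nutlin-3 (SE 0.20, adjusted p = 0.31). The doxorubicin change of 225742_at did pass under quantile normalization (-0.53, adjusted p = 0.025), under median centring (-0.61, adjusted p = 0.0086), with untreated array 3 left out (-0.57, adjusted p = 0.046) and with doxorubicin array 1 left out (-0.61, adjusted p = 0.024). It also passed against the DMSO arrays (-0.50, adjusted p = 0.047). Probe set 241876_at, at -0.36 with doxorubicin, passed under quantile normalization and median centring (-0.53 and -0.54, adjusted p = 0.043 and 0.045). Set against the DMSO arrays, which all lay below the untreated arrays on this probe set, its doxorubicin change was -0.015 (adjusted p = 0.96). Its nutlin-3 change was 0.17 (adjusted p = 0.68). Probe set 235162_at had positive changes, 0.25 with doxorubicin and 0.20 with nutlin-3 (SE 0.17 each, adjusted p = 0.24 and 0.48). Probe set 205655_at had -0.34 with doxorubicin and 0.07 with nutlin-3 (SE 0.28 each, adjusted p = 0.33 and 0.91). On both, treated and control arrays overlapped.

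The 6 MDM4 probe sets spanned -0.43 to 0.25 with doxorubicin and -0.33 to 0.20 with nutlin-3, with 0 of 6 called by limma in either comparison, where 47.0% of all probe sets tested were called with doxorubicin and 17.8% with nutlin-3. Their lowest adjusted p was 0.084 with doxorubicin and 0.31 with nutlin-3. Their 15 pairwise correlations over the arrays ran from -0.44 to 0.87 with a median of 0.39.

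PPM1D, the WIP1 phosphatase gene, rose with both agents and further with doxorubicin, the opposite order to MDM2. Probe set 204566_at had 11164, 11910.3 and 11499.7 with doxorubicin against 3875, 4408 and 4852 in untreated cells. It had 7874, 8367 and 8792 with nutlin-3 against 3923, 4408 and 4942 in DMSO. Treated arrays stood above all control arrays, and doxorubicin arrays above nutlin-3 arrays, while the control groups overlapped. The changes were 1.40 with doxorubicin (SE 0.10, adjusted p = 7.3e-09, 2.64-fold) and 0.92 with nutlin-3 (SE 0.10, adjusted p = 3.6e-06, 1.89-fold). Their difference was 0.48 (SE 0.14, adjusted p = 0.014). It did not pass with median centring (0.33, adjusted p = 0.22) or without the intensity trend (adjusted p = 0.051). With only doxorubicin array 1 the difference was 0.44.

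The second PPM1D probe set, 230330_at, had 862, 852 and 884 with doxorubicin against 302, 324 and 261 in untreated cells. It had 500.2, 534 and 539 with nutlin-3 against 292, 324 and 309.9 in DMSO. It rose by 1.51 (SE 0.11, adjusted p = 2e-08) with doxorubicin and by 0.74 (SE 0.11, adjusted p = 0.00019) with nutlin-3. The difference of 0.77 (SE 0.16, adjusted p = 0.0018) also passed with median centring (0.61, adjusted p = 0.029). Both probe sets were thus called higher for the difference, where 15.3% of all probe sets were, and they correlated at 0.97 over the 12 arrays.

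**Figure D2:**
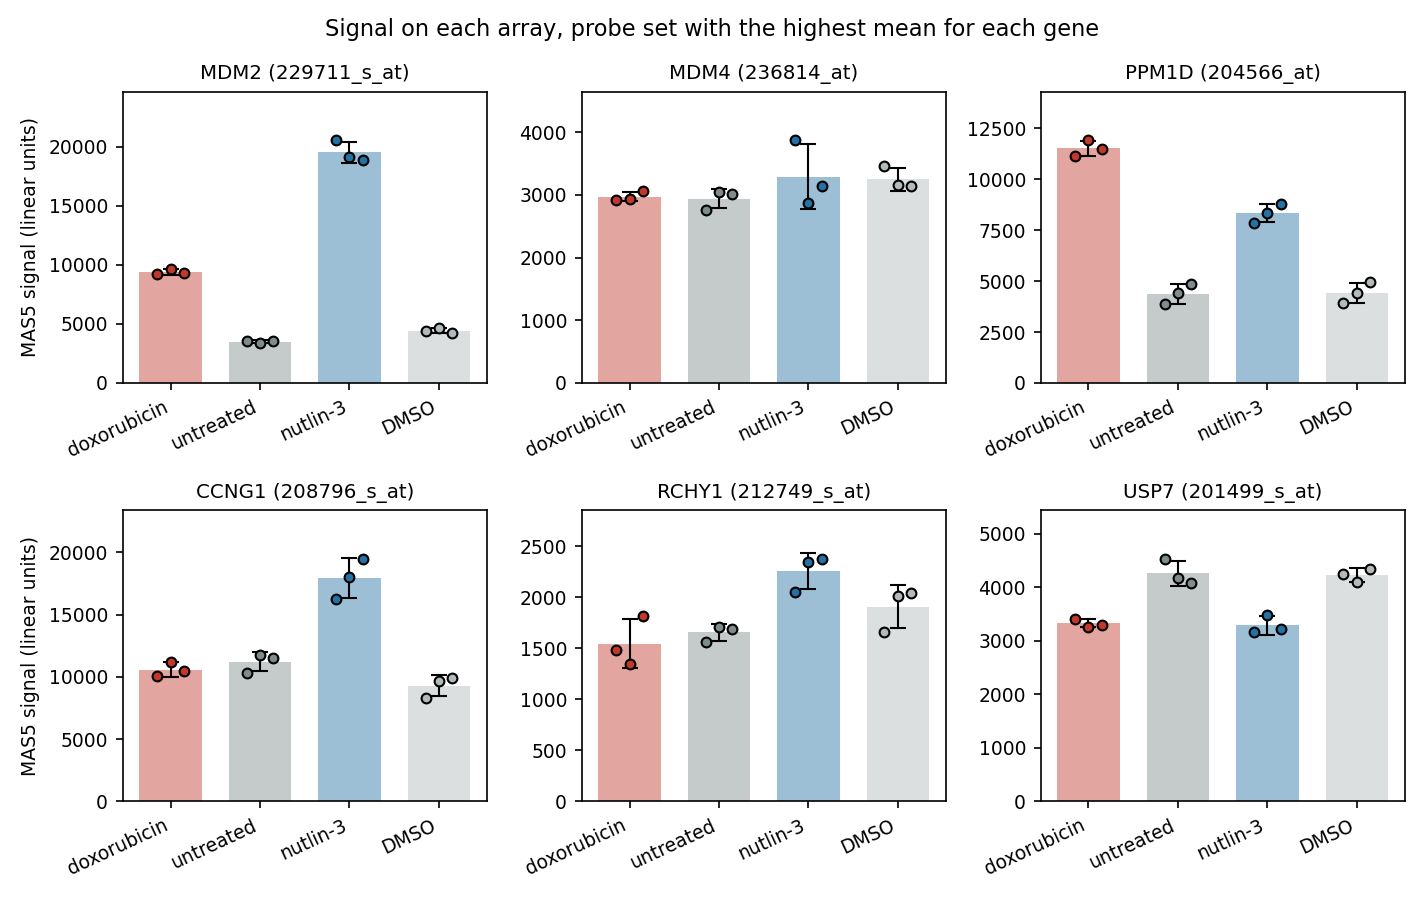
Signal (linear units, axis from 0) of the probe set with the highest mean for each of the 6 genes, with doxorubicin, untreated, nutlin-3 and DMSO from left to right. Bars are group means, error bars the SD and points the 3 arrays. MDM2 is highest with nutlin-3 at 18859 to 20516, PPM1D with doxorubicin at 11164 to 11910.3, and CCNG1 with nutlin-3 at 16263 to 19455. For MDM4 each treated group overlaps its own control.

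CCNG1, the cyclin G1 gene and a known p53 target, rose with nutlin-3 and did not pass with doxorubicin. Its only probe set, 208796_s_at, had 10058, 11224 and 10470.1 with doxorubicin against 10331, 11751 and 11520.4 in untreated cells. It had 16263, 18007 and 19455 with nutlin-3 against 8324, 9647 and 9909 in DMSO. Doxorubicin and untreated arrays overlapped, and the nutlin-3 arrays lay above all others. The doxorubicin change was -0.08 (SE 0.09, adjusted p = 0.49, 95% interval -0.27 to 0.11) and the nutlin-3 change 0.95 (SE 0.09, adjusted p = 1.3e-06). The doxorubicin response minus the nutlin-3 response was -1.03 (SE 0.13, adjusted p = 1.9e-05), which includes the gap between the control groups. All DMSO arrays lay below all untreated arrays, a difference that did not pass (-0.27, SE 0.09, adjusted p = 0.059). Against the untreated arrays the nutlin-3 change was 0.67 (adjusted p = 2.9e-05), and against the DMSO arrays the doxorubicin change was 0.19 (adjusted p = 0.091). 

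RCHY1, the PIRH2 ligase gene, had 0 of 4 probe sets called with either agent by limma, where 47.0% of all probe sets were called with doxorubicin and 17.8% with nutlin-3. Probe set 212749_s_at had 1481, 1346 and 1814.5 with doxorubicin against 1561, 1714 and 1694.5 in untreated cells. It had 2057, 2349.6 and 2376 with nutlin-3 against 1664, 2018 and 2042 in DMSO. All nutlin-3 arrays lay above their DMSO arrays by a small margin and above all untreated arrays, and the doxorubicin arrays straddled the untreated ones. The changes were -0.11 with doxorubicin (SE 0.12, adjusted p = 0.47) and 0.25 with nutlin-3 (SE 0.12, adjusted p = 0.17). Probe set 214281_s_at had 1454, 1340.1 and 1364 with doxorubicin against 1209, 1366 and 1297 in untreated cells, and 1567, 1723 and 1848.5 with nutlin-3 against 1335, 1427 and 1674 in DMSO. Its changes were 0.10 and 0.21 (SE 0.10 each, adjusted p = 0.43 and 0.18). Set against the untreated arrays in place of DMSO, the nutlin-3 changes of these probe sets were 0.44 (adjusted p = 0.0072) and 0.40 (adjusted p = 0.006), so the RCHY1 call with nutlin-3 rests on which control is used. The same holds with doxorubicin for 212749_s_at, which against the DMSO arrays had -0.30 and was called lower (adjusted p = 0.037). Of all 32768 probe sets, 11019 were called with nutlin-3 against untreated cells and 5840 against DMSO. With doxorubicin 16850 were called against DMSO and 15408 against untreated cells. The dimmer probe sets 235300_x_at and 212743_at had changes of -0.23 and -0.15 with doxorubicin and 0.25 and -0.05 with nutlin-3, none of them past the threshold.

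USP7, the deubiquitinase of p53 and MDM2, gave probe sets that did not move together. Probe set 201499_s_at had 3414, 3268 and 3304 with doxorubicin against 4530.2, 4184 and 4086 in untreated cells. It had 3161, 3493 and 3222 with nutlin-3 against 4246, 4092 and 4353 in DMSO. Treated arrays lay below control arrays in both comparisons, with a change of -0.36 for each agent (SE 0.08, adjusted p = 0.0011 with doxorubicin and 0.003 with nutlin-3). The difference between the responses was 0.01 (SE 0.11, adjusted p = 0.98). Probe set 201498_at had 3217, 2871 and 3323 with doxorubicin against 2597, 2661 and 2894 in untreated cells. It had 2275, 2487 and 2515.5 with nutlin-3 against 2812, 2551 and 2697 in DMSO. Its changes of 0.21 with doxorubicin (SE 0.09, adjusted p = 0.062) and -0.15 with nutlin-3 (SE 0.09, adjusted p = 0.29) ran in opposite directions and neither passed. The doxorubicin change did pass under quantile normalization (0.25, adjusted p = 0.02), against the DMSO arrays (0.22, adjusted p = 0.042), with untreated array 3 left out (0.25, adjusted p = 0.046) and with doxorubicin array 2 left out (0.27, adjusted p = 0.026). The difference between the responses on 201498_at was 0.35 and passed (SE 0.12, adjusted p = 0.039), but it was 0.20 with median centring (adjusted p = 0.43) and did not pass without certain single arrays of each group.

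The dim USP7 probe set 222032_s_at had 110.4, 106 and 124 with doxorubicin against 32.0, 84.4 and 52.1 in untreated cells. It had 73.8, 81.1 and 76.5 with nutlin-3 against 41.2, 53.2 and 79.4 in DMSO. It was called higher with doxorubicin (0.90, SE 0.29, adjusted p = 0.017), while 201499_s_at of the same gene was called lower. That call was lost under quantile normalization (0.72, adjusted p = 0.064), median centring (0.73, adjusted p = 0.065) and without untreated array 1 (0.64, adjusted p = 0.084). Probe set 230967_s_at lay under the filter, with signals of 8.11, 5.11 and 3.79 with doxorubicin against 4.70, 26.3 and 4.63 in untreated cells, and 29.7, 4.35 and 7.30 with nutlin-3 against 31.5, 2.96 and 3.67 in DMSO. The 3 pairs of tested USP7 probe sets correlated at -0.70 to 0.42 over the arrays, so a single direction for USP7 cannot be given from these files.

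Over all members, 11 of 24 tested probe sets were called higher and 1 lower with doxorubicin, where 23.4% and 23.6% of the 32768 probe sets tested were (47.0% in either direction). The higher calls were the 8 of MDM2, the 2 of PPM1D and 1 of USP7. With nutlin-3 also 11 were higher and 1 lower, against 8.33% and 9.49% of all (17.8% in either direction), and the higher ones were the 8 of MDM2, the 2 of PPM1D and that of CCNG1. The difference between the responses was called for 10 probe sets, 3 higher and 7 lower, against 15.3% and 14.8% of all (30.2% in either direction). The median change of the tested members was 0.23 with doxorubicin and 0.31 with nutlin-3, against 0.03 and -0.01 over all probe sets. MDM2 supplies 8 of the 24, so these medians lean on 1 gene. Taken by 1 probe set per gene, 2 genes of 6 were called higher with doxorubicin (MDM2 and PPM1D) and 3 with nutlin-3 (MDM2, PPM1D and CCNG1). USP7 was called lower with both agents on its brightest probe set, though the probe sets of USP7 did not move together. Among all 13673 genes taken this way, 29.0% were called higher and 24.8% lower with doxorubicin. The shares with nutlin-3 were 11.0% and 12.5%.

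**Figure D3:**
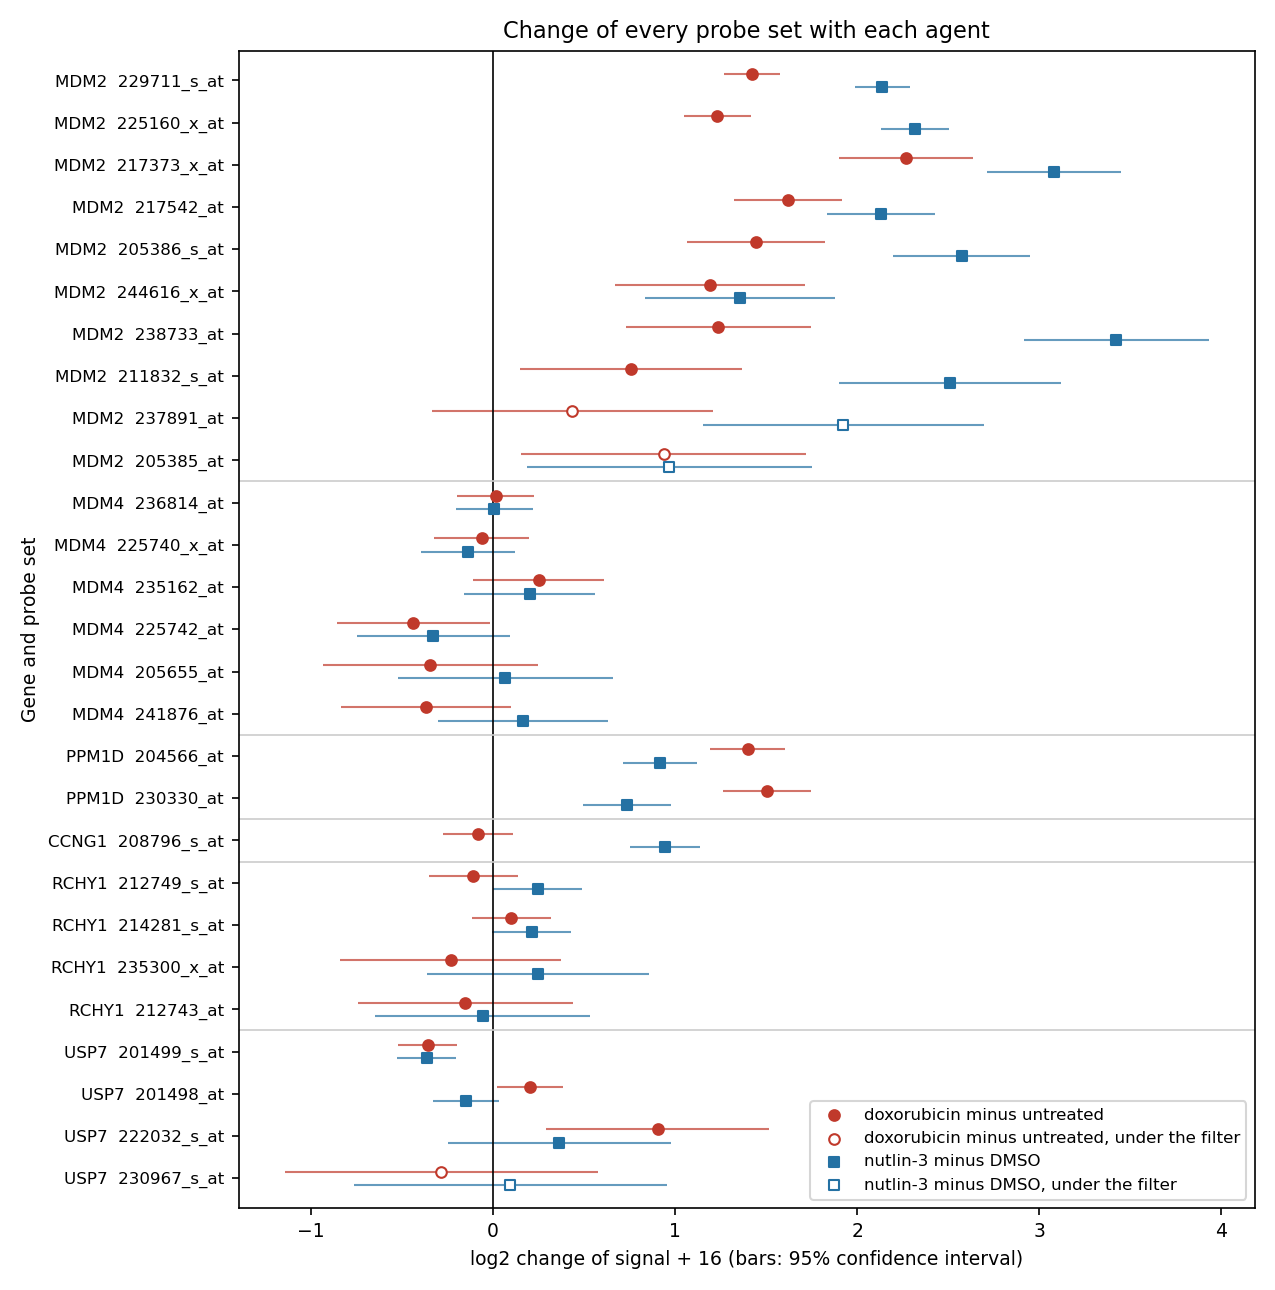
Log2 change of all 27 probe sets of the 6 genes, in rows by gene, with doxorubicin minus untreated as red circles and nutlin-3 minus DMSO as blue squares. Bars are 95% confidence intervals (n = 3 arrays per group) and open symbols are the 3 probe sets under the filter. MDM2 lies right of 0 with nutlin-3 mostly further right (up to 3.42), PPM1D has doxorubicin further right, CCNG1 has only nutlin-3 away from 0 (0.95), and USP7 probe sets fall on both sides.

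Between the control groups, DMSO against untreated, 1 of the 24 probe sets was called higher and 1 lower, against 5.61% and 7.84% of all probe sets (13.5% in either direction). Both belong to MDM2. Probe set 229711_s_at was higher in DMSO by 0.33 (SE 0.07, adjusted p = 0.0058), with DMSO arrays above untreated arrays. Probe set 211832_s_at was lower by 0.95 (SE 0.29, adjusted p = 0.037), and it did not pass without any 1 of the untreated arrays or without DMSO array 2 or 3 (-1.04 to -0.60). These MDM2 values have opposite signs, and on the other 6 tested MDM2 probe sets the change did not pass. This comparison shares its arrays with the others. Crossing the controls, so that doxorubicin was set against DMSO and nutlin-3 against untreated cells, left each of the 8 tested MDM2 probe sets and both PPM1D probe sets called higher with both agents. Crossed, 8994 of all 32768 probe sets were called higher with doxorubicin and 4979 with nutlin-3. With each agent's own control these counts were 7674 and 2730. Crossed, 7856 were called lower with doxorubicin. The same crossing called MDM4 225740_x_at and 225742_at and RCHY1 212749_s_at lower with doxorubicin, and USP7 201498_at higher.

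The transcripts most like each member over the 12 arrays were named by Pearson correlation of log2 signals among 13673 genes, as a description of 4 group levels. For MDM2 they were METTL8 (r = 0.995), COL13A1 (0.992), ZNF195 (0.984), ANKRD20A12P (0.981) and RAB40B (0.981). RAB40B, a small GTPase gene, changed by 1.19 with doxorubicin and 2.15 with nutlin-3, close to the brightest MDM2 probe set. For PPM1D they were GPX1 (0.991), S100A6 (0.989) and TSGA10 (0.989). GPX1, a glutathione peroxidase gene, changed by 1.94 with doxorubicin and 1.22 with nutlin-3. For CCNG1 they were S100A16 (0.978), SHC1 (0.959) and CEBPZOS (0.958), and S100A16, a calcium-binding protein gene, changed by 0.01 and 1.07. For USP7, read on 201499_s_at, they were SFMBT1 (0.974), SDC2 (0.963) and NCAPH (0.963), and SDC2, the syndecan-2 gene, changed by -1.47 and -1.45. For RCHY1 they were EIF3G (0.976), LLPH (0.975) and PNO1 (0.974). For MDM4 the closest were lower, C3orf62 at 0.913, LRP5L at 0.822 and PMS2P3 at 0.790.

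The wider machinery around p53 was read from 7 lists of 95 genes, of which 83 were tested on their brightest probe set, 9 had no probe set of their own and 3 lay under the filter. Over all 13673 genes, 29.0% were called higher and 24.8% lower with doxorubicin, and 11.0% and 12.5% with nutlin-3. The median change was 0.08 with doxorubicin and 0.01 with nutlin-3. The lists were chosen with results of these data known, so their counts are descriptions.

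Other ubiquitin ligases and cofactors of p53 moved both ways with doxorubicin, 5 of 16 tested genes higher and 4 lower with a median of 0.0032, and 1 higher and 1 lower with nutlin-3. TRIM24, a ligase of p53, had signals of 2074 ± 22.1 with doxorubicin against 848 ± 105 in untreated cells (SD, n = 3), a change of 1.28 (SE 0.10, adjusted p = 3.7e-08), and it had -0.07 with nutlin-3. RNF34, another ligase, rose by 0.93 with doxorubicin (adjusted p = 2.4e-07). UBE4B, which extends ubiquitin chains on p53 with MDM2, fell by 0.93 with doxorubicin and fell by 0.52 with nutlin-3 (adjusted p = 1.2e-06 and 0.0014). CUL4A, a cullin scaffold, fell by 0.60 with doxorubicin, and WWP1 rose by 0.47 with nutlin-3 (adjusted p = 0.0013).

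Among 9 tested deubiquitinases of p53, MDM2 or MDM4 other than USP7, 4 were higher and 1 lower with doxorubicin and 2 higher and 1 lower with nutlin-3. OTUD1 rose by 1.12 and USP11 by 0.68 with doxorubicin (adjusted p = 6.5e-06 and 8.3e-06). USP24 fell by 1.06 with doxorubicin and fell by 0.33 with nutlin-3. Its nutlin-3 call was lost against untreated cells (-0.19, adjusted p = 0.16). ATXN3, the ataxin-3 gene, rose by 0.42 with doxorubicin and by 0.96 with nutlin-3, and USP4 rose by 0.36 with nutlin-3 (adjusted p = 0.048), a call lost against untreated cells (0.17, adjusted p = 0.31).

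Of 9 tested MDM2 inhibitors and ribosomal stress sensors, 1 was higher and 1 lower with each agent. RPS27L, a p53-induced ribosomal protein gene whose product binds MDM2, rose by 0.65 with doxorubicin and 0.68 with nutlin-3 (adjusted p = 8.6e-06 and 2e-05). NPM1, the nucleophosmin gene, fell by 0.23 with doxorubicin, but against DMSO its change was 0.04, and its DMSO arrays were themselves lower than untreated ones (-0.27). SIVA1 fell by 0.70 with nutlin-3. CDKN2A, which encodes the MDM2 inhibitor ARF, was under the filter, with group means of 72.4 ± 34.3 with doxorubicin against 38.6 ± 32.5 in untreated cells and 35.9 ± 8.65 with nutlin-3 against 27.5 ± 13.6 in DMSO (SD, n = 3).

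Kinases of p53, MDM2 or MDM4 were more often lower than higher with doxorubicin, 6 lower and 1 higher of 11 tested, with a median of -0.32. With nutlin-3, 3 were lower and 0 higher by limma, with a median of -0.19. CHEK1 and CHEK2, the checkpoint kinase genes, fell by 1.04 and fell by 1.10 with doxorubicin, and fell by 0.97 and fell by 0.37 with nutlin-3. ABL1 fell by 0.68 with doxorubicin and fell by 0.48 with nutlin-3. CSNK1D, a casein kinase gene, rose by 0.36 with doxorubicin, and its change was 0.18 with only doxorubicin array 1. Acetylases, deacetylases and methylases of p53 gave 6 lower and 1 higher of 10 with doxorubicin, with a median of -0.43, and 1 lower and 0 higher with nutlin-3. The control groups also differed on this list. In DMSO against untreated cells 3 of the 10 were called higher and 3 lower, against 7.42% and 5.67% of all genes. SIRT1, a deacetylase gene, rose by 1.03 with doxorubicin and by 0.63 when set against DMSO. KAT5 and PRMT5 fell by 0.95 and fell by 0.77 with doxorubicin, and the demethylase gene KDM1A fell by 0.46 with nutlin-3.

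Relatives and partners of cyclin G1 and of the PPM1D phosphatase gave 6 higher and 3 lower of 16 with doxorubicin and 2 higher and 2 lower with nutlin-3. CCNG2, the cyclin G2 gene, rose by 1.08 with doxorubicin and 0.60 with nutlin-3, and against untreated cells its nutlin-3 change was 0.19 (adjusted p = 0.25). PPM1K rose by 0.96 with doxorubicin, but it was also higher in DMSO than in untreated cells (0.81), and against DMSO its doxorubicin change was 0.16 (adjusted p = 0.29). PPM1E, a related phosphatase gene, rose by 0.94 with doxorubicin and fell by 0.91 with nutlin-3. PPM1A rose by 0.44 with doxorubicin and 0.37 with nutlin-3, though against DMSO its doxorubicin change was 0.07 (adjusted p = 0.65). PPM1G fell by 0.40 with nutlin-3. The PP2A subunit genes PPP2R5C and PPP2R5E fell by 1.13 and fell by 0.81 with doxorubicin.

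Other p53-induced genes of arrest and feedback, the list MDM2, PPM1D and CCNG1 would belong to, were called higher for 13 of 13 tested genes with each agent, with medians of 1.79 with doxorubicin and 1.53 with nutlin-3. RPS27L is on this list too. The difference between the agents was called for 6 of them, 5 with the larger response to doxorubicin, the direction of PPM1D, and 1 with the larger response to nutlin-3, the direction of MDM2 and CCNG1. Over all genes 20.2% and 16.5% were called in these directions. TP53INP1, a stress-induced partner of p53, changed by 3.11 with doxorubicin and 2.51 with nutlin-3. GDF15 rose further with nutlin-3, by 3.55. Set against the DMSO arrays in place of untreated cells, the doxorubicin changes were 5.26 for GDF15 and 3.12 for TP53INP1. PHLDA3, an inhibitor of AKT signalling, was the gene with the larger nutlin-3 response (0.51 against 1.01, difference -0.50, SE 0.16, adjusted p = 0.028), and it is named here after its values were seen. Its doxorubicin change did not pass with median centring (0.34, adjusted p = 0.051), which leaves 12 of the 13 called higher, and it was 0.32 with only doxorubicin array 1.

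**Figure D4:**
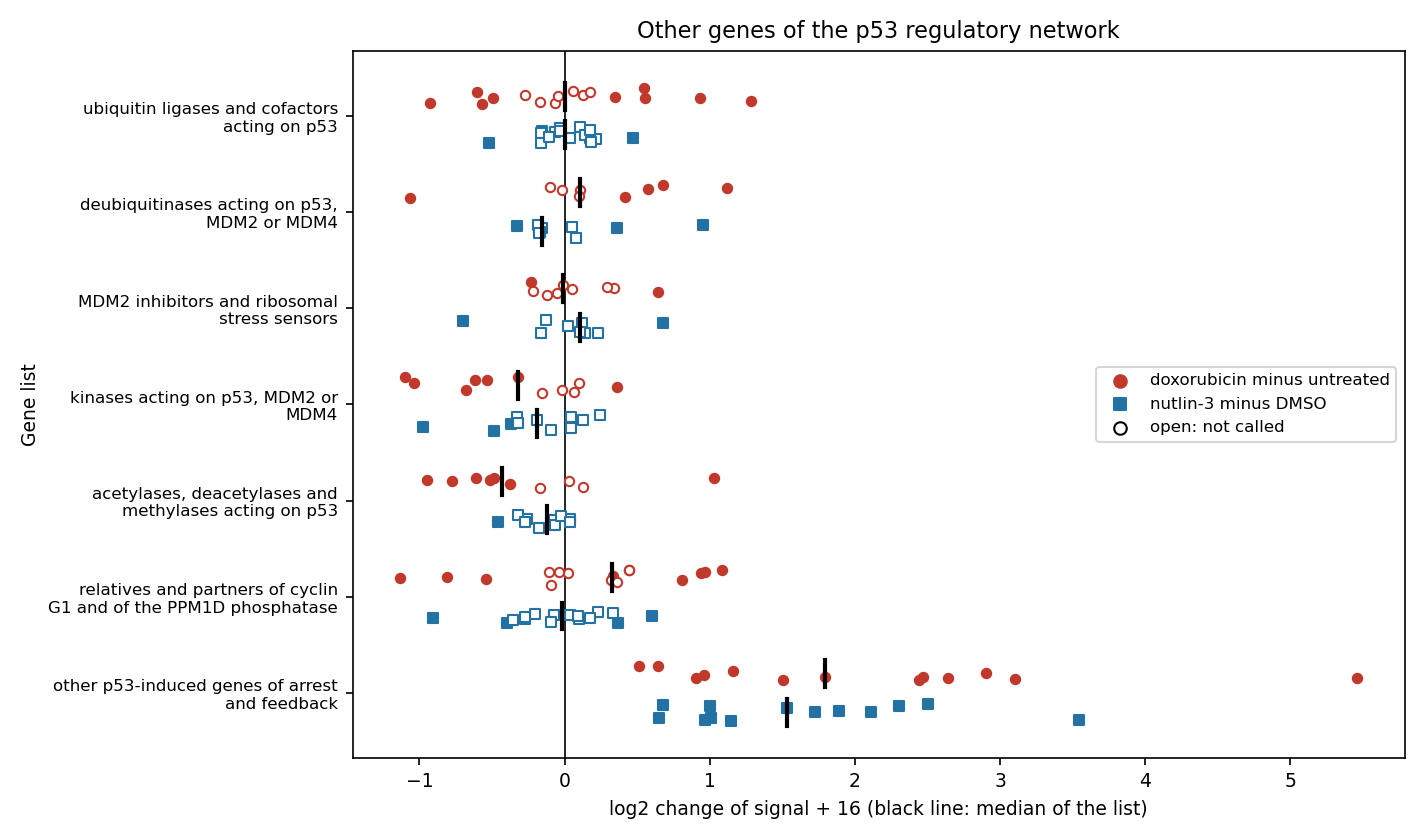
Log2 change of each tested gene of 7 lists around p53 (rows), with doxorubicin minus untreated as red circles and nutlin-3 minus DMSO as blue squares. Filled symbols were called, open ones were not, and black lines are list medians. The other p53-induced genes lie right of 0 with medians of 1.79 and 1.53, while the kinase and acetylase lists have medians of -0.32 and -0.43 with doxorubicin and -0.19 and -0.12 with nutlin-3.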

How the data were processed

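RNA of 12 U2OS samples was amplified with a 3' in vitro transcription kit and hybridised to Affymetrix Human Genome U133 Plus 2.0 arrays, per the labels' protocols. The deposited series table gives a linear intensity for each probe set on each array, which the authors made with MAS5, per the submitters' processing notes, with no version or settings given in the sources used here. The 2% trimmed mean was 500.06 to 500.07 on every array, and this scaling was kept. The number of arrays limits the precision. Groups and replicate numbers came from the titles.

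Of 54675 probe sets, 62 controls were left out. The platform annotation named 1 gene for 41097, several for 1801 and listed none for 11777, and 41043 matched RefSeq (GRCh38.p14) by gene ID. Values became log2(signal + 16), which understates changes of dim probe sets, and probe sets with a mean under the 40th percentile (signal 49.3) were dropped. A single limma 3.58.1 fit (R 4.3.3, lmFit, eBayes with trend) held 4 group means, Benjamini-Hochberg adjusted over 32768 probe sets, and each agent was contrasted with its own control, then the responses with each other, then DMSO with untreated. The fit was also run on simulated data in which a small set of probe sets changed with doxorubicin alone. That setting cannot speak for the other contrasts or for changes as broad as those seen here, and nothing is drawn from it. Same-numbered samples deviated together at r of -0.07 to 0.20, so the numbers were not taken as pairs. Among untreated, DMSO and nutlin-3 arrays these values were all positive, from 0.0094 to 0.20. Those with a doxorubicin array ran from -0.07 to 0.12, so a weak share by number is not excluded. The genes named from a list are, for each agent, at most 2 called genes that rose most and at most 2 that fell most. For each member the most alike genes were named, and other named exceptions are marked. The members and lists were chosen with earlier results of these data known. Alternatives covered scaling, pseudocounts of 1 and 64, filters, probe set choice, trend, array weights, 6-array fits, the replicate block, each array left out and a stricter threshold, and 3 were added after the data were seen (crossed controls, with 1 alternative for each agent, and only doxorubicin array 1). The p53 transcript is not reported here.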

Additional observations from a re-analysis of the deposited data

Results flagged for a closer look

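The response to doxorubicin differed from the response to nutlin-3 for 10 probe sets of the 6 genes by limma's test of the difference (doxorubicin response minus nutlin-3 response, adjusted p under 0.05), where 30.2% of all probe sets tested did. For MDM2 the differences were -0.72 on 229711_s_at, -1.08 on 225160_x_at, -0.81 on 217373_x_at, -1.13 on 205386_s_at, -2.18 on 238733_at and -1.75 on 211832_s_at. For CCNG1 the difference was -1.03. For PPM1D the differences were 0.48 on 204566_at and 0.77 on 230330_at, with the larger response to doxorubicin. For USP7 it was 0.35 on 201498_at, where neither response passed on its own. Each of these differences also includes the gap between the control groups. Groups of 3 arrays were too small for a search for single outlying arrays.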

How the results depend on the processing

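Of 2323 single member values under the alternatives, 2240 stayed on their side of the threshold, 52 lost a call, 31 gained one and 0 changed sign while called. The counts of member probe sets called were 12 with doxorubicin, 12 with nutlin-3, 10 for their difference and 2 for DMSO against untreated. With 1 probe set per gene they were 3, 4, 3 and 1, fewer by construction. The DMSO count was 1 at an adjusted p under 0.01, with a pseudocount of 64, with no filter, without the trend and with only the 6 arrays compared, and 4 with array weights; the cause was not tested. With single arrays left out the counts ran from 11 to 13 with doxorubicin, stayed at 12 with nutlin-3, and ran from 8 to 10 for the difference and 1 to 3 for DMSO. With only doxorubicin array 1, and so fewer arrays, 9 were called with doxorubicin and 8 for the difference. With the other control, 16 were called with doxorubicin and 14 with nutlin-3, where 16850 and 11019 of all 32768 probe sets were. With the replicate number as a block the counts were 14, 12, 10 and 3, and 7 of 12 arrays correlated best with their own number. The block added calls for MDM4 225742_at (-0.43, adjusted p = 0.035) and USP7 201498_at (0.21, adjusted p = 0.044) with doxorubicin and for CCNG1 in DMSO against untreated (-0.27, adjusted p = 0.013). Calls over all probe sets moved by more than 1.5 times with nutlin-3 from 5840 to 3572 at an adjusted p under 0.01, 3613 with 1 probe set per gene and 11019 with the other control. Doxorubicin gave 15408 and 7616 with 1 probe set per gene, and the difference 9888, then 6258 at the stricter threshold and 5396 with 1 probe set per gene. DMSO against untreated gave 4409, then 1862 and 1930 in these settings, 2704 without untreated array 1, 2681 without DMSO array 2 and 2449 without DMSO array 3. Median centring moved the median change of all probe sets to -0.14 with doxorubicin (0.03 as deposited) and the higher share of its calls to 33.8% (49.8% as deposited), to 34.7% (50.8%) for the difference and to 64.2% (41.7%) for DMSO. Of 4310 list gene values, 7 changed sign with the value called under at least 1 of both controls, all when set against the other control, where NPM1 had 0.040 with doxorubicin and -0.24 with nutlin-3, EP300 had 0.028 with doxorubicin, and with nutlin-3 HDAC1 had 0.26, KMT5A -0.92, SETD7 0.31 and PRMT5 -0.24. Low signal limits what can be said of 211832_s_at of MDM2, 222032_s_at of USP7 and 212743_at of RCHY1, whose lowest group means were 37.6, 56.1 and 46.4 against a filter signal of 49.3.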
